A study of Rattus norvegicus with 4 samples.

Results

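The Rab GTPases are a large family of small GTPases and organisers of membrane traffic. Every gene whose symbol on the array annotation was Rab followed by a number and at most 1 letter was taken, which gave 54 genes of the 14497 genes measured. The genes were taken by symbol and not by value, although with earlier results of these data known. Regulators and effectors whose symbols begin with Rab, such as Rab3gap2 or Rab11fip3, were not members and are described after them. Cultured hippocampal neurons of rat embryos had received either an shRNA directed at Gld2 (2 cultures) or a scrambled shRNA (2 cultures), and the labels give no strain, age in culture, vector or time after shRNA delivery. Gld2, now named Tent2, is a cytoplasmic poly(A) polymerase, and the title gives the profiling of poly(A) RNA after its knockdown as the aim. Per the labels, the RNA of all 4 cultures was eluted from a poly(U) resin by heat, so a value depends on how much of a transcript was recovered in that step as well as on its amount. All values are deposited RMA values on the log2 scale, where a difference of 1 is a doubling, and every difference is Gld2 shRNA minus scrambled shRNA. In bulk RNA of a culture, fewer cells of a type and less RNA per cell cannot be told apart.

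A Rab protein works as a switch. An exchange factor loads it with GTP at a particular membrane, where the active form recruits effectors such as tethers, motor adaptors and fusion factors, and a GTPase-activating protein then turns it off. Escort proteins present newly made Rabs to geranylgeranyl transferase, which adds the lipid anchors, and GDI proteins carry the inactive form back through the cytosol. In neurons Rab3 and Rab27 proteins act in vesicle release, Rab5 and Rab11 in the endosomal cycling of receptors, Rab7 in late endosomes and the long-range transport of signalling endosomes, and Rab1, Rab2 and Rab6 in the secretory pathway.

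Of the 54 genes, Rab13 rose and 53 did not pass the test, which was limma with Benjamini-Hochberg adjustment over all genes at an adjusted p under 0.05. That is 1.85% of the members, against 4.10% of all genes called in either direction. No Rab gene was called lower, where 2.41% of all genes were, and 3 had an unadjusted p under 0.05 in that direction by limma. Among all genes 1.69% were called higher. The members ran from -0.36 (Rab30) to 0.41 (Rab13), with a median of 0.03 and 36 of 54 values above 0, while the median over all genes was -0.02. Centring each array on its median over all probe sets put the member median at 0.0054 with 24 of 54 values below 0. Centring on the median of the 14497 genes with 1 symbol, below called centring over named genes, put it at 0.10 with 11 below 0. The balance of signs thus depends on the scaling. Their median absolute difference was 0.0668, against 0.109 over all genes. The 2 sets also differed in level, with a mean in scrambled shRNA replicate 1 of 10.82 over the Rab genes and 9.08 over all genes. For 53 of the 54 genes the 95% confidence interval of the difference lay wholly within a 1.5-fold change either way, the exception being Rab17, whose interval ran from -0.02 to 0.60. The same held for 13702 of the 14497 genes measured.

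**Figure D1:**
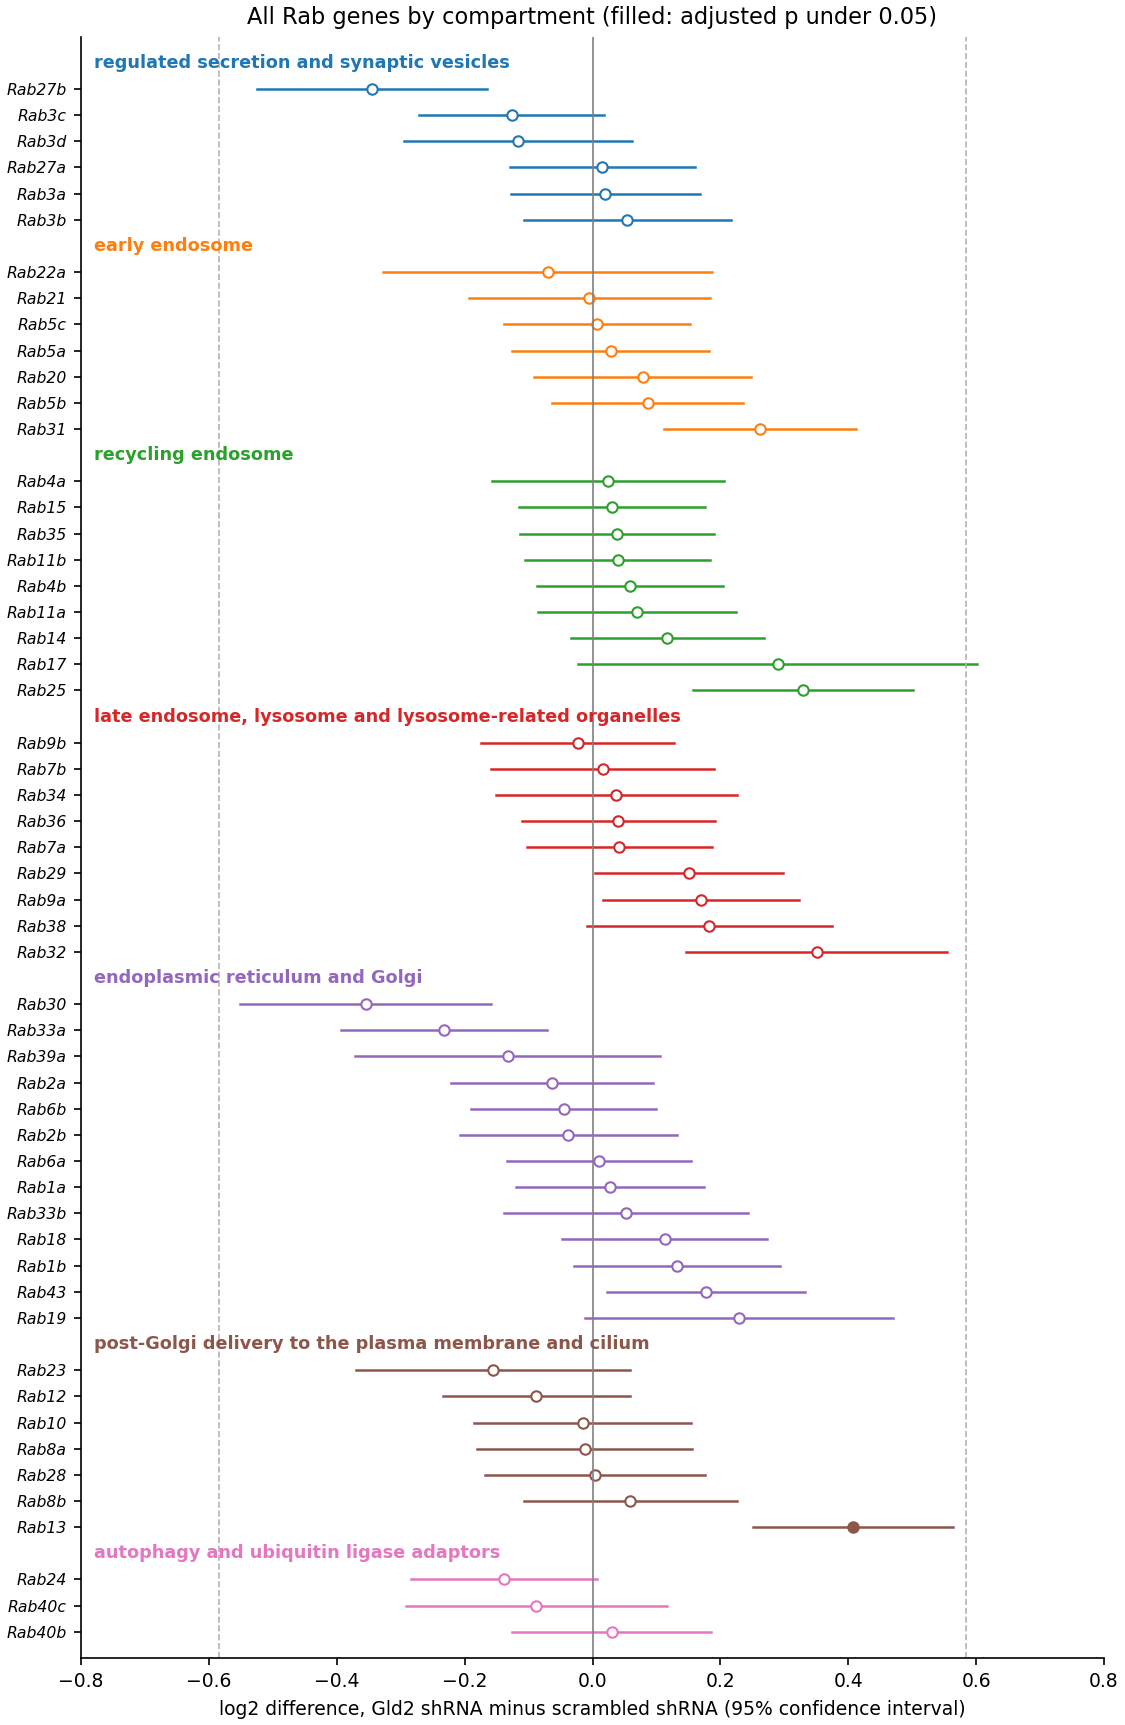
The log2 difference of each of the 54 Rab genes (point) with its 95% confidence interval (line), grouped by the compartment in which the protein is known to act; the dashed lines mark 1.5-fold either way and a filled point an adjusted p under 0.05. Rab13 at 0.41 is the only filled point, and the interval of Rab17 alone crosses a dashed line.

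On the same arrays the targeted transcript was lower and interferon-induced genes were higher. Tent2 stood at 41.1% of the control level (log2 difference -1.28, limma adjusted p = 0.000754). Of 594 genes called, 245 were higher and 349 lower. Centring each array on its median over all probe sets gave 558 and 1367, and centring over named genes 218 and 94. The balance of directions over all genes thus depends on the scaling. Centring also changes the moderated standard errors, so the counts do not reflect the shift alone. All 16 measured genes of the interferon list were called higher, with a median of 3.44. Whether the 2 cultures of a group were prepared separately is not in the labels, so a p-value here measures only how these 4 samples spread, and part of that may be technical. Over all genes the median absolute distance from the control mean was 0.145 in Gld2 shRNA replicate 2 and 0.0891 in replicate 1. Over the Rab genes it was 0.0764 and 0.0799, so for this family the knockdown cultures lay about equally far from the controls.

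Rab13 acts in delivery to the plasma membrane, at cell junctions of epithelia and in neurite outgrowth, and is a close relative of Rab8. Its values (probe set 10816941) were 9.87 and 9.93 under Gld2 shRNA and 9.46 and 9.52 under scrambled shRNA. Both knockdown values lay above both control values, and the gap between the groups was larger than the gap within either. The group means were 9.90 ± 0.0461 under Gld2 shRNA and 9.49 ± 0.0404 under scrambled shRNA (SD, n = 2 each). The difference of 0.41 (standard error 0.0638, interval 0.25 to 0.56) was a 1.33-fold rise, with an adjusted p = 0.0326 in the limma fit. The rise kept its size without any single culture, from 0.37 to 0.44, but the call was lost without Gld2 shRNA replicate 2 (limma adjusted p = 0.0797), without scrambled shRNA replicate 1 (0.310) and without scrambled shRNA replicate 2 (0.224). It was also lost when all probe sets entered the fit and the adjustment (limma adjusted p = 0.0796) and without moderation across genes (0.259). Rab8a and Rab8b, its nearest relatives among the members, had differences of -0.01 and 0.06.

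**Figure D2:**
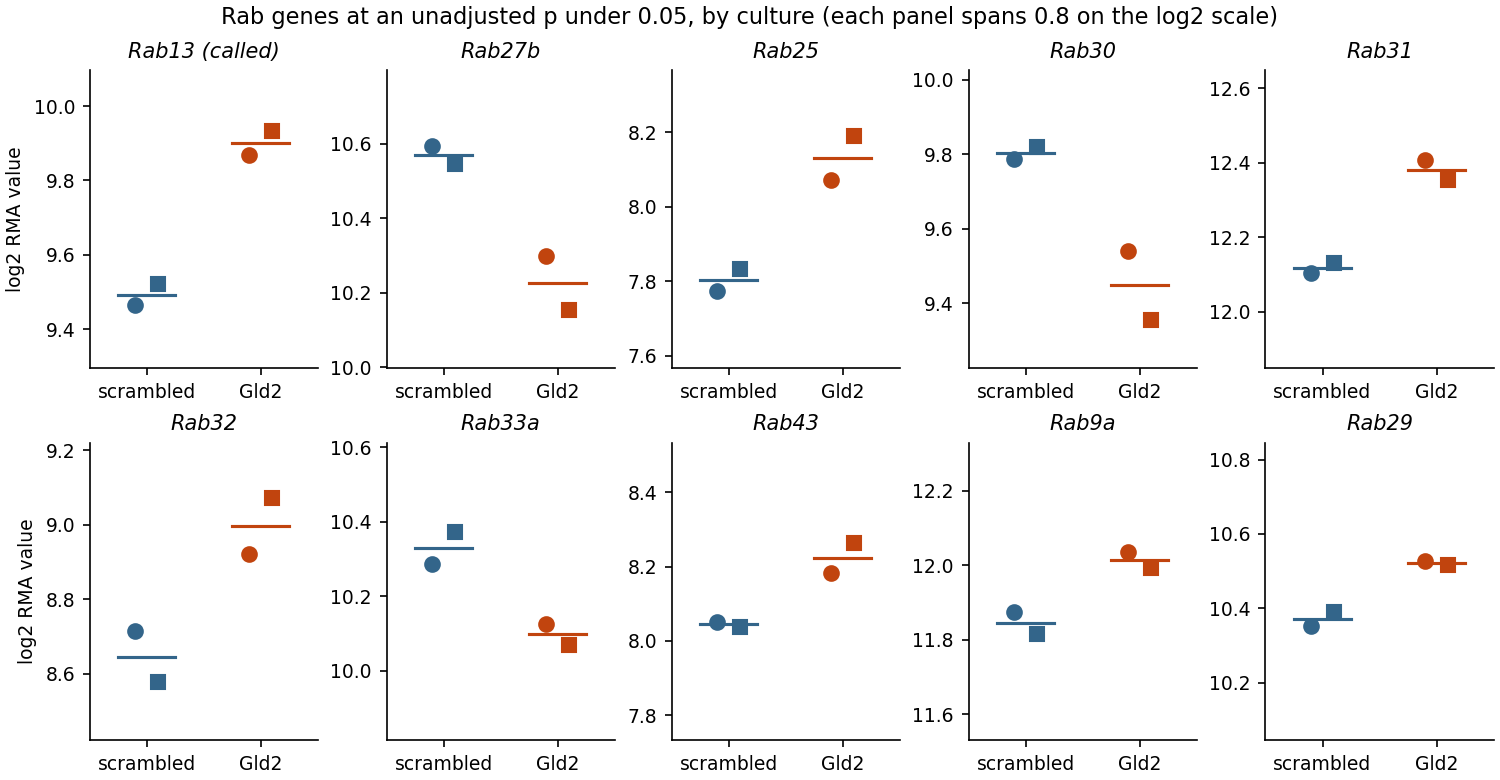
Log2 RMA values of the 10 Rab genes with an unadjusted p under 0.05, ordered by p; circles are replicate 1, squares replicate 2, and bars the mean of 2 cultures in the scrambled shRNA (blue) and Gld2 shRNA (orange) groups. In each panel both knockdown cultures lie on the same side of both controls, the criterion on p having selected such genes, and Rab13 alone was called.

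Because interferon-induced genes were the largest rises on these arrays, the promoters of the Rab genes were searched for the sites through which interferon signalling acts on its target genes. RefSeq promoter windows of assembly GRCr8, 300 bases each with 250 before the gene start, were found for 45 of the 54 members. The interferon-stimulated response element was searched as GAAA, any 2 bases and GAAA again, and the gamma-activated site as TTC, any 3 bases and GAA, on both strands, and matches could overlap. A response element was found in 1 of 46 Rab windows (2.17%), against 3.92% of all 33469 windows and 8 of 12 windows of the interferon list (66.7%). A gamma-activated site was found in 2 Rab windows (4.35%), against 8.87% of all windows and 3 of the 12 of the interferon list. Of the 10 members with an unadjusted p under 0.05, 9 had a window, and 1 of these, that of Rab25, held a match. The 250 bases upstream of 3 genes are shown for the called gene and for the 2 members with matches whose differences were 0.33 (Rab25) and 0.23 (Rab19). Neither Rab25 nor Rab19 was called, and without Gld2 shRNA replicate 2 the difference of Rab19 was 0.097. The window of Rab11a, whose difference was 0.07, held the other gamma-activated pattern and is not shown. The stretch of Rab13 (chr2:177972720-177972969, plus strand) held neither pattern. That of Rab25 (chr2:176304222-176304471, minus strand) held the gamma-activated pattern from position -185. That of Rab19 (chr4:69123712-69123961, plus strand) held a pair of overlapping response elements from positions -62 and -56, both counted from the gene start. Capitals mark the matched letters in the 250 bases before each gene start, read 5′ to 3′ on the strand of the gene. A match describes these letters only, and its absence says nothing of the factors.
Rab13: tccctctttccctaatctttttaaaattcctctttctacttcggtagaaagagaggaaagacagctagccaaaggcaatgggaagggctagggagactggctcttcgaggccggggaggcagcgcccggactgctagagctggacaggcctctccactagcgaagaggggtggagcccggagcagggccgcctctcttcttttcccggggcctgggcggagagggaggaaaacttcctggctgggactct
Rab25: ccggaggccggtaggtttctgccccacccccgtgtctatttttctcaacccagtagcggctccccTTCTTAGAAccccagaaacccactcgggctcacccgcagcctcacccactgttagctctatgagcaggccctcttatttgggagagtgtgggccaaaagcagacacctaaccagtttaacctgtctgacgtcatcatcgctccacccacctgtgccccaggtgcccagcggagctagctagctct
Rab19: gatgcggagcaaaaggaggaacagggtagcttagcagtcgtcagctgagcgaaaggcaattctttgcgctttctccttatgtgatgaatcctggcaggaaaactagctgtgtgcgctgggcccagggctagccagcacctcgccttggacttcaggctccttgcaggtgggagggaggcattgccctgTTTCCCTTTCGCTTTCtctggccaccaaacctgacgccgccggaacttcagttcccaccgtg

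Rabs of regulated secretion and synaptic vesicles were centred slightly below 0, and none of the 6 was called. Rab27b, which acts in the docking and release of secretory vesicles, was at 10.30 and 10.15 under Gld2 shRNA and at 10.60 and 10.55 under scrambled shRNA. The groups did not overlap. Its difference of -0.35 (95% confidence interval -0.53 to -0.16) missed the threshold (limma adjusted p = 0.0629). Rab27a, its paralog, stood between 7.83 and 7.86 in all 4 cultures (difference 0.02). Rab3a, the main Rab of synaptic vesicles, was at 13.23 and 13.25 under Gld2 shRNA and at 13.24 and 13.20 under scrambled shRNA, an interval of the difference from -0.13 to 0.17. The other Rab3 genes did not pass either. Rab3c and Rab3d were lower in both knockdown cultures than in both controls, by differences of -0.13 and -0.12, whereas Rab3b, with the highest difference of the group, stood at 10.34 and 10.32 against 10.22 and 10.32 (difference 0.05). The group median was -0.05.

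Early endosomal Rabs had a median of 0.03, with 0 of 7 called by limma and 1 at an unadjusted p under 0.05. That was Rab31, which acts between the trans-Golgi network and endosomes. Rab31 stood at 12.41 and 12.35 in the knockdown cultures and at 12.10 and 12.13 in the controls, without overlap, a difference of 0.26 (95% confidence interval 0.11 to 0.41, limma adjusted p = 0.0761). Rab5a, which drives fusion of early endosomes, was at 11.36 and 11.34 against 11.29 and 11.36, and the groups overlapped (difference 0.03, interval -0.13 to 0.18). Its paralogs Rab5b and Rab5c had differences of 0.09 and 0.01. The lowest difference of the group belonged to Rab22a, at 10.29 and 10.03 against 10.16 and 10.31, with overlapping groups and a difference of -0.07. Rab20 and Rab21 lay at 0.08 and 0.00.

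All 9 Rabs placed with recycling endosomes had differences above 0, with a median of 0.06. Rab11b turned with cyclic loess, and Rab4a without Gld2 shRNA replicate 1 and without scrambled shRNA replicate 1. Each Rab was placed in 1 compartment, and Rab12, placed with post-Golgi delivery, stood at -0.09. Of the 9, 7 were higher without overlap between the groups, yet 0 were called by limma and 1 had an unadjusted p under 0.05. Over all genes 24.0% did not overlap and were higher, and 25.4% had an unadjusted p under 0.05 in either direction. Rab25, a member of the Rab11 subfamily known from epithelia, stood at 8.07 and 8.19 under Gld2 shRNA and at 7.77 and 7.83 under scrambled shRNA. Both knockdown values were above both controls (difference 0.33, interval 0.16 to 0.50, limma adjusted p = 0.0630). Rab11a, the general Rab of recycling endosomes, was at 11.82 and 11.78 against 11.76 and 11.69, a difference of 0.07 with an interval from -0.08 to 0.22. Its close paralog Rab11b was at 0.04. The fast-recycling Rab4a had the lowest difference of the group, at 11.58 and 11.48 against 11.45 and 11.56, with overlapping groups and a difference of 0.02. Rab17, another epithelial Rab, had a difference of 0.29 that rested mostly on Gld2 shRNA replicate 2, which stood at 8.81 beside 8.42 in replicate 1 and 8.32 and 8.33 in the controls.

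Rabs of late endosomes, lysosomes and lysosome-related organelles had 0 of 9 called by limma and 3 higher at an unadjusted p under 0.05, where 9.24% of all genes were. Their median difference was 0.04, and 8 of 9 were above 0. Rab32, which acts in the making of lysosome-related organelles, stood at 8.92 and 9.07 under Gld2 shRNA and at 8.71 and 8.58 under scrambled shRNA. The groups did not overlap (difference 0.35, interval 0.15 to 0.55, limma adjusted p = 0.0779). Its paralog Rab38 had a difference of 0.18 and Rab29, of the same subfamily, stood at 10.53 and 10.52 against 10.35 and 10.39 (difference 0.15, limma adjusted p = 0.189). In Rab29 the knockdown cultures were nearly equal and both above the controls. Rab9a, which returns cargo from late endosomes to the Golgi, was at 12.04 and 11.99 against 11.87 and 11.82, also without overlap (difference 0.17, limma adjusted p = 0.168). Its paralog Rab9b, with the lowest difference of the group, was at 12.69 and 12.67 against 12.73 and 12.67, a difference of -0.02. Rab7a, the main Rab of late endosomes, was at 13.19 and 13.22 against 13.17 and 13.16 (difference 0.04, interval -0.10 to 0.19).

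Rabs of the endoplasmic reticulum and Golgi spread to both sides, with a median of 0.01, 0 of 13 called and 3 at an unadjusted p under 0.05 by limma. Those 3 were 23.1% of the group, against 25.4% of all genes. Rab30, a Golgi Rab, stood at 9.54 and 9.36 in the knockdown cultures and at 9.79 and 9.82 in the controls. Both knockdown values were below both controls, replicate 2 further than replicate 1 (difference -0.36, interval -0.55 to -0.16, limma adjusted p = 0.0714). Rab33a, a Golgi Rab of neurons, was at 10.12 and 10.07 against 10.29 and 10.37, without overlap (difference -0.23, limma adjusted p = 0.107). Its paralog Rab33b had overlapping groups and a difference of 0.05. On the upper side, Rab43 was at 8.18 and 8.26 against 8.05 and 8.04 (difference 0.18, limma adjusted p = 0.161). Rab19 had the highest difference of the group, at 8.02 and 8.28 against 7.89 and 7.95 (difference 0.23, limma adjusted p = 0.210). The core Rabs of the secretory pathway differed by less than these. Rab1a, which acts in transport from the endoplasmic reticulum to the Golgi, was at 12.75 and 12.78 against 12.76 and 12.73 (interval -0.12 to 0.17). Rab1b, its paralog, was at 12.63 and 12.62 against 12.44 and 12.54, without overlap (difference 0.13, interval -0.03 to 0.29). Rab2a and Rab2b had differences of -0.06 and -0.04, and Rab6b of -0.05.

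Among Rabs of post-Golgi delivery and the cilium, Rab13 was the 1 called of 7, and the median of the group was -0.01. Rab8a, which acts in delivery to the plasma membrane and the cilium, was at 11.43 and 11.37 against 11.35 and 11.47, with overlapping groups (interval -0.18 to 0.16). Rab10, of exocytosis and axon growth, was at 12.53 and 12.56 against 12.62 and 12.50, also overlapping (interval -0.19 to 0.15). Rab23, a regulator of Hedgehog signalling, had the lowest difference of the group, at 10.36 and 10.22 against 10.53 and 10.36, a difference of -0.16. The 3 remaining members were Rab24, linked to autophagy, and Rab40b and Rab40c, which serve as substrate adaptors of ubiquitin ligases. Rab24 was at 9.95 and 9.98 against 10.09 and 10.11, lower in both knockdown cultures (difference -0.14, limma adjusted p = 0.212), and Rab40b at 10.26 and 10.18 against 10.21 and 10.17, with overlap. The difference of Rab40c was -0.09.

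In all, 31 of the 54 members did not overlap between the groups (57.4%), 22 higher and 9 lower. Over all genes 58.5% did not overlap, 24.0% higher and 34.5% lower. At an unadjusted p under 0.05 stood 10 members (18.5%), 7 higher and 3 lower, against 25.4% of all genes, 9.24% higher and 16.2% lower. With both directions counted, the share without overlap was thus about that of the array, and the share at an unadjusted p under 0.05 was below it. By direction, 40.7% of the members did not overlap and were higher and 13.0% were higher at an unadjusted p under 0.05, above the shares of the array, while 16.7% and 5.56% were lower, below them. Of the 7 higher members, 4 lay farther from the controls in Gld2 shRNA replicate 2 and 3 in replicate 1, and all 3 lower members lay farther in replicate 2. Without single cultures the 10 kept their sign, which follows from groups that do not overlap. Without Gld2 shRNA replicate 1, 5 members were called higher (Rab13, Rab17, Rab19, Rab25 and Rab32) and 2 lower (Rab27b and Rab30), while without any of the other 3 cultures 0 were called by limma in either direction.

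**Figure D3:**
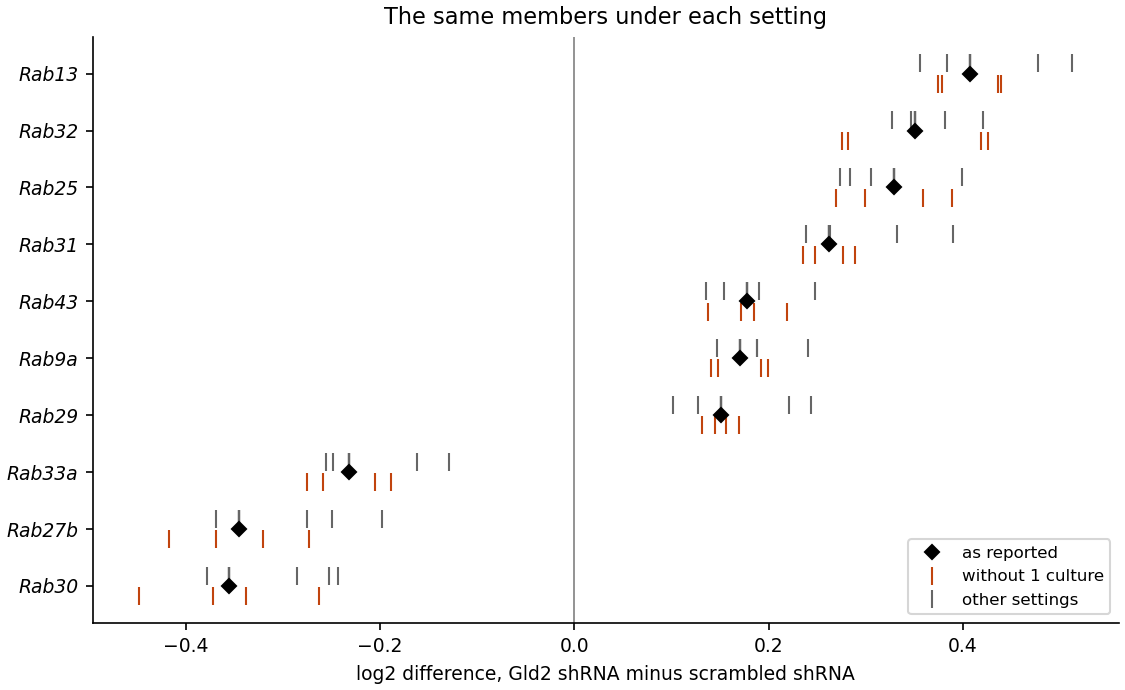
The log2 difference of the 10 Rab genes with an unadjusted p under 0.05 as reported (diamond), without 1 culture (orange ticks, 4 each) and under the other settings (grey ticks). No tick crosses 0, which for the orange ticks follows from groups that do not overlap, and Rab13 runs from 0.36 to 0.51.

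Of the 54 genes, 6 had a pair of probe sets, and the brighter of each pair was used. The members of a pair had differences of opposite sign in 1 case, Rab5c, at 0.01 and -0.04. Rab18, a Rab of lipid droplets and the endoplasmic reticulum, had 0.11 in the probe set used. In the other probe set it stood at 10.83 and 10.69 under Gld2 shRNA and at 10.44 and 10.58 under scrambled shRNA, a difference of 0.25 without overlap. Rab1a had 0.03 in the probe set used and 0.15, without overlap, in the other. Rab paralogs are similar in coding sequence, so cross-hybridisation between their probe sets is possible and was not tested.

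Differences over the array varied with gene length, and among the Rab genes the relation ran the same way. Across the 54 members the difference had a Pearson's r of -0.32 with log10 genomic length, and across 14472 genes of -0.24. These are correlations across genes of the same 4 arrays, given as descriptions. Of the 10 members with an unadjusted p under 0.05, the 3 lower ones, Rab27b, Rab30 and Rab33a, spanned 199 kb, 94.6 kb and 12.1 kb. The higher members Rab13, Rab29 and Rab25 spanned 5.14 kb, 5.54 kb and 6.10 kb, and Rab32, Rab43, Rab9a and Rab31 spanned 14.8 kb, 19.7 kb, 22.0 kb and 135 kb. The spans of the higher and lower members thus overlapped. With the length trend removed, Rab13 stood at 0.36 and remained called (limma adjusted p = 0.0361). In that setting Rab31, at 0.39, was called too, and Rab27b and Rab30 stood at -0.20 and -0.24.

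**Figure D4:**
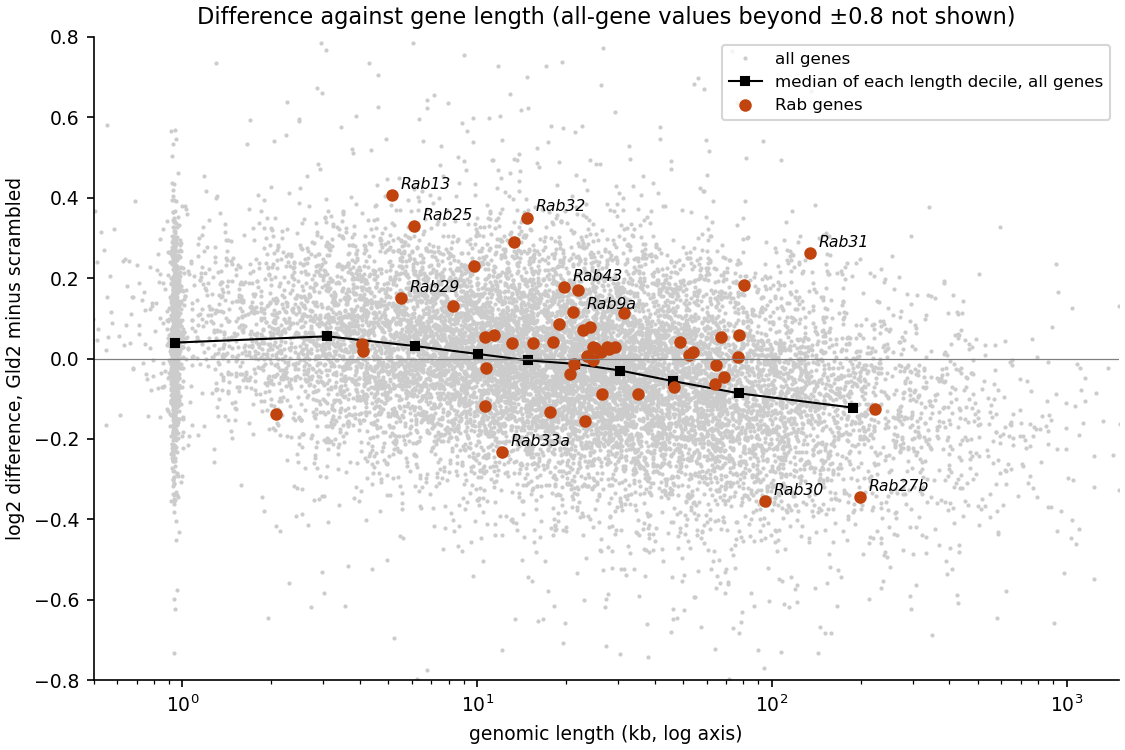
The log2 difference of each gene against its genomic length in kb on a log axis, for all genes (grey), the medians of 10 length classes over all genes (black) and the 54 Rab genes (orange, labelled at an unadjusted p under 0.05). Rab13, Rab25 and Rab32 lie above the black line, Rab27b, Rab30 and Rab33a below it, and Rab31 above it among the long genes.

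Among the regulators and effectors of Rabs every call was downward. Of 90 measured regulators and effectors of a list of 129, 8 fell and 0 rose by limma, with 31 lower (34.4%) and 3 higher (3.33%) at an unadjusted p under 0.05, against 16.2% and 9.24% of all genes. The 8.89% called compares with 2.41% of all genes called lower. The count depends on the setting, with 19 lower after median centring and 2 after centring over named genes, and was 0 with all probe sets in the fit and the adjustment. For Rims1, median centring moved the difference from -0.37 to -0.39 and the standard error from 0.0587 to 0.0916. Its limma adjusted p nevertheless went from 0.0341 to 0.00217. Centring thus changed the moderation as well as the differences, and the 2 were not separated. Their median was -0.11 and 66 of 90 values were below 0. The list was drawn up with results of these data known, and its genes were long, with a median of 55.8 kb against 23.4 kb for the Rab genes and 18.04 kb for all genes. Without scrambled shRNA replicate 1 or replicate 2 none of the 8 calls was left, without Gld2 shRNA replicate 2 there were 3 calls, and without Gld2 shRNA replicate 1 there were 19 lower and 5 higher. With the length trend removed Bicd1, Chm, Hps4 and Tbc1d9b kept their calls, Rims1, Rims2, Sytl5 and Tbc1d8b lost theirs, and 1 other gene, Rilpl2, was called lower. Whether length has a part in the result was not tested further.

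Chm, which encodes the Rab escort protein REP1, had the largest fall of the machinery. It stood at 9.97 and 9.65 under Gld2 shRNA and at 10.52 and 10.46 under scrambled shRNA, without overlap, and was 1.60-fold lower (log2 difference -0.68 ± 0.111 SE, limma adjusted p = 0.0352). Its paralog Chml, for REP2, had a difference of -0.28 (limma adjusted p = 0.137). The geranylgeranyl transferase subunits Rabggta and Rabggtb were at -0.06 and -0.14, and Gdi2, which retrieves inactive Rabs, at 0.11. Of the 7 escort, prenylation and recycling genes, 1 fell, 0 rose and 6 did not pass.

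Of 18 exchange factors, Hps4 fell (5.56%, against 2.41% of all genes called lower), 0 rose and 17 did not pass, with a median of -0.07. Hps4 forms with Hps1 the exchange factor of Rab32 and Rab38. It was at 9.80 and 9.65 against 10.24 and 10.26, a difference of -0.52 (limma adjusted p = 0.0255), while Hps1 was at 0.04. Their substrates Rab32 and Rab38 stood at 0.35 and 0.18, on the other side of 0. Madd, an exchange factor of Rab3 and Rab27, had a difference of -0.19. Of 22 GTPase-activating proteins, Tbc1d9b and Tbc1d8b fell (9.09%) and 20 did not pass, with a median of -0.09. Tbc1d9b had means of 9.91 and 10.45, without overlap (difference -0.54, limma adjusted p = 0.0334), and Tbc1d8b at 7.75 and 7.66 against 8.05 and 8.08 (difference -0.35, limma adjusted p = 0.0448). With the length trend removed the call of Tbc1d8b was lost (limma adjusted p = 0.0820).

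The list of 43 effectors and Rab kinases also held the Rab phosphatase Ppm1h. Of these 43, 4 fell (9.3%, against 2.41% of all genes called lower), 0 rose and 39 did not pass, with a median of -0.13. Bicd1, which links Rab6 vesicles to dynein, was at 10.05 and 9.92 against 10.56 and 10.53, without overlap (difference -0.56, limma adjusted p = 0.0169). Rab6a itself was at 0.01, and Bicd2 at -0.05. The Rab27 effector Sytl5 was at 7.86 and 7.81 against 8.39 and 8.24 (difference -0.48, limma adjusted p = 0.0320), and another Rab27 effector, Myrip, was at -0.29 without passing. The Rab3 effectors Rims1 and Rims2, scaffolds of the presynaptic active zone, fell by 0.37 and by 0.37 on the log2 scale (limma adjusted p = 0.0341 and 0.0411). Rims1 stood at 10.64 and 10.64 against 11.007 and 11.002, the tightest of these groups. With the length trend removed Rims1 and Rims2 stood at -0.18 and -0.19 and lost their calls (limma adjusted p = 0.144 and 0.137), as did Sytl5 (0.0605). Rph3a, also an effector of Rab3, was at -0.12, and Lrrk2, a kinase that phosphorylates several Rabs, at -0.02. Without either scrambled shRNA culture the calls of Rims1, Rims2, Bicd1 and Sytl5 were lost. Their signs could not change there, because their groups did not overlap.

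**Figure D5:**
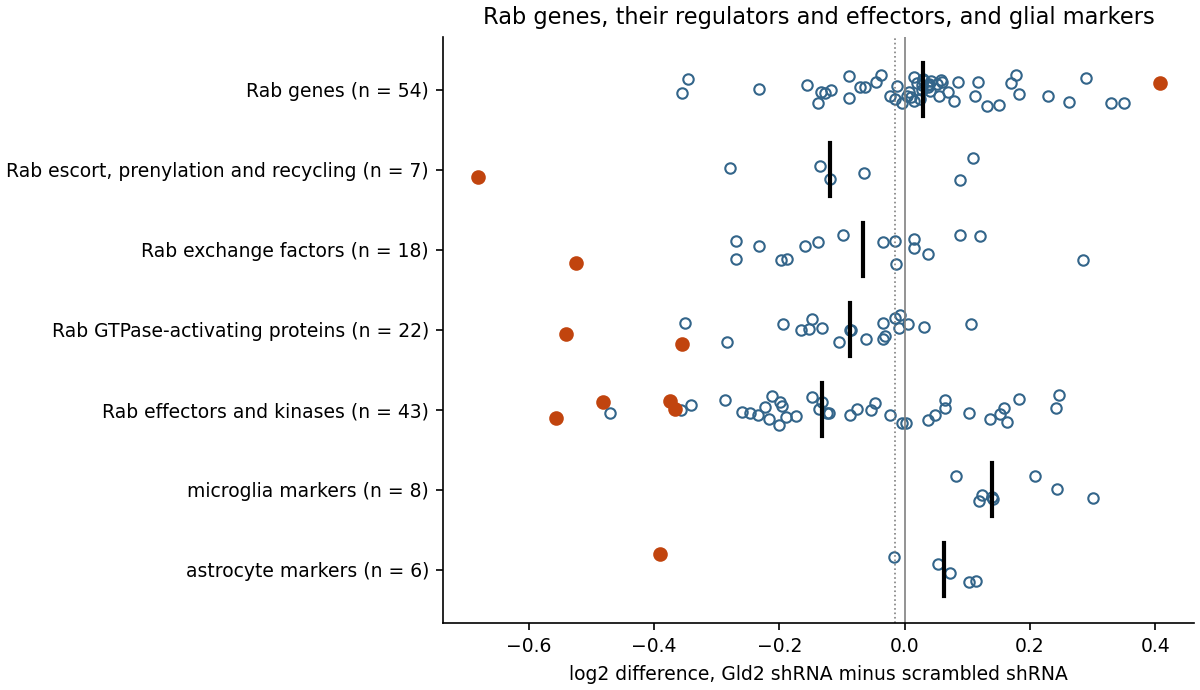
Log2 differences of the Rab genes, of 4 lists of their regulators and effectors and of 2 lists of glial markers; each circle is a gene, filled where the adjusted p was under 0.05, black bars are list medians and the dotted line is the median of all genes. The Rab genes centre at 0.03 and the lists of regulators and effectors between -0.13 and -0.07, with the 8 filled points among these lists all below 0.

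Several members that stood higher, such as Rab31 and Rab32, are also known from glia, so glial markers were read beside them. Of 8 microglia markers 0 were called by limma and 3 were higher at an unadjusted p under 0.05, where 9.24% of all genes were. All 8 values were above 0, with a median of 0.14, while 6699 of all 14497 genes were above 0. Their mean log2 value was 7.55 and 7.66 under Gld2 shRNA and 7.44 and 7.43 under scrambled shRNA, so the groups did not overlap. Cx3cr1 (0.30) and C1qb (0.24) had the largest values. Of 6 astrocyte markers Gja1 fell (-0.39) and 5 did not pass. Of the 5, Gfap (0.10), Aqp4 (0.07), Aldh1l1 (0.05) and S100b (0.11) were higher without overlap, and Slc1a3 (-0.02) overlapped. Those higher without overlap were 66.7% of the list, against 24.0% of all genes. The list had a median difference of 0.06, and its mean was 11.89 and 11.86 under Gld2 shRNA against 11.88 and 11.89. Markers of excitatory neurons had a median of -0.08 over 4 genes and those of interneurons of -0.03 over 6, with none called. At an unadjusted p under 0.05 by limma 1 and 2 of them were lower, where 16.2% of all genes were. Of 6 oligodendrocyte lineage markers 0 were called, with a median of 0.02 and 1, Mbp (-0.29), lower at an unadjusted p under 0.05 by limma. Of 5 endothelial markers 0 were called, with a median of 0.08, and 2, Cldn5 (0.29) and Flt1 (0.22), were higher at an unadjusted p under 0.05 by limma. In level the microglia markers lay between percentiles 10.8 (Itgam) and 35.3 (C1qb) of all genes. The dimmest Rabs, from Rab20 at percentile 24.0 to Rab32 at 44.3, all had differences above 0. Brighter Rabs lay on both sides of 0, and Rab31 was at percentile 95.9. Without dim genes the median over all genes was -0.04, against -0.02 as reported. No detection calls were used, so it was not determined whether the microglia markers or the dimmest Rabs lay above background. The part of glial cells, or of level, in the values of Rab31 and Rab32 was not tested.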

How the data were processed

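Poly(A) RNA of 4 cultures was measured, 2 per group. The authors deposited log2 values. Per the submitters' processing notes they used RMA and affy, in versions and with settings not given in the sources used here; that the scale is log2 follows from the range of the values. No further normalization was applied, and no detection calls or batches were given, so the number of arrays limits the precision. Of 28826 probe sets, 15209 had 1 gene symbol, 306 several and 13311 none. The probe set with the highest mean was used per gene, giving 14497 genes. The groups were compared by two-sided tests of limma 3.58.1 (lmFit, eBayes) under R 4.3.3, and p-values were adjusted by Benjamini and Hochberg's method over all genes (threshold 0.05), on 2 residual degrees of freedom and 3.96 from moderation. Confidence intervals of 95% use the moderated standard errors. The code was tested on simulated data. Genomic lengths are spans in RefSeq GRCr8. Cultures were given in full for members past the threshold or at an unadjusted p under 0.05, for 9 textbook markers of compartments and for the highest and lowest member of each compartment. Other members were named beside their paralogs after their values were seen. Of the regulators and effectors, those past the threshold were named, and a few others for their known link to a Rab, also after their values were seen. Members, lists and alternatives were chosen with earlier results of these data known. Fits without 1 culture assume that the lone culture varies like the other group. The alternatives were cyclic loess, median centring, removal of the length trend (lowess span 0.3), a level-dependent prior variance, no moderation, genes under the 25th percentile left out, the mean of probe sets, all probe sets, a replicate block, leaving out each culture, and unadjusted p. Median centring used the median of all 28826 probe sets. Centring over named genes used the median of the 14497 genes with 1 symbol and was added after the data were seen.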

Additional observations from a re-analysis of the deposited data

How the results depend on the processing

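Of 35 genes recomputed singly, 26 were Rab genes, and no called gene among the 35 changed sign under any of 14 alternatives. For the fits without 1 culture this follows from groups that do not overlap. Called Rab genes (1 higher, 0 lower as reported) numbered 3 higher with cyclic loess, 3 higher and 2 lower with median centring, 2 higher with the length trend removed, 6 higher and 3 lower with a level-dependent prior variance, and 4 higher and 2 lower without dim genes. They numbered 0 higher without moderation and with all probe sets, and 7 higher and 3 lower by unadjusted p. Over the fits without 1 culture they ran from 0 to 5 higher and 0 to 2 lower. Regulators and effectors (0 higher, 8 lower) numbered 19 lower with median centring, 2 with centring over named genes, 5 with the length trend removed, 26 with the level-dependent prior, 18 without dim genes and 0 without moderation or with all probe sets. By unadjusted p they were 31 lower and 3 higher, and without 1 culture 0 to 19 lower and 0 to 5 higher. Higher genes overall (245) were 370 with cyclic loess, 558 with median centring, 621 with the level-dependent prior, 1 without moderation, 127 with all probe sets and 1339 by unadjusted p, and 82 to 1283 without 1 culture. Lower genes (349) were 1367 with median centring, 94 with centring over named genes, 231 with the length trend removed, 1611 with the level-dependent prior, 949 without dim genes, 0 without moderation, 50 with all probe sets and 2348 by unadjusted p, and 3 to 1406 without 1 culture. The replicate number as a block gave 1 Rab gene higher, 7 regulators and effectors lower, and 233 higher and 332 lower genes. The deviations of same-numbered arrays correlated at 0.14, with 2 pairs, so the numbers are not taken to pair the samples.

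Over the alternatives 11 to 24 of the Rab genes were below 0, against 18 as reported. Among the 26 Rab genes recomputed singly, signs turned in uncalled genes. With cyclic loess they were Rab22a (0.0325), Rab3a (-0.0319), Rab6a (-0.0168), Rab7a (-0.00703) and Rab8a (0.0325). With median centring Rab3a was at -0.00389 and Rab6a at -0.0138. With the length trend removed they were Rab10 (0.0761), Rab3a (-0.0361) and Rab8a (0.00407), and with centring over named genes Rab10 (0.0545), Rab8a (0.0576) and Rab9b (0.0470). Without 1 culture the ranges were -0.0766 to 0.0457 for Rab10, -0.20 to 0.0593 for Rab22a, -0.00290 to 0.0423 for Rab3a, -0.00842 to 0.0679 for Rab40b, -0.0322 to 0.0803 for Rab4a, -0.0102 to 0.0665 for Rab5a, -0.0679 to 0.0432 for Rab8a and -0.0546 to 0.00872 for Rab9b. The causes were not tested. With 2 residual degrees of freedom and no detection calls, most Rab differences cannot be told from the spread between cultures.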
